A study of Mus musculus with 22 samples.

Results

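Choroid plexus genes were followed through mRNA sequencing of the hippocampal CA1 region of mice that were fed without restriction (ad libitum, AL) or under calorie restriction (CR). The set was a named list of 31 genes known from choroid plexus epithelium, chosen by name and not by a measured value. All 31 were among the 23361 genes of the expression matrix, and all 31 passed the filter on low levels. Within the list, 10 well known epithelial markers (Folr1, Clic6, Otx2, Aqp1, Slc4a5, Sostdc1, Tmem72, Cldn2, F5 and Calml4) served as a core from which a score was computed for each library. The other 21 members, among them Ttr and Kl, were kept out of that score.

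The study asked how age and long-term CR change CA1 expression. The mice were female Swiss Webster x DBA/C57BL6 F1 animals, assigned as young adults to the AL diet or to a CR diet reduced in carbohydrates. All started the diets at about the same age, so CR mice at 15 months had also been restricted for longer than those at 5 months. In CR mice age and time under restriction thus cannot be told apart. The 4 groups were formed by diet and age, with 5 mice for each diet at 5 months, 6 mice for each diet at 15 months and 1 library per mouse. CA1 was microdissected and then frozen, and each library is a bulk sample of all cells in the piece. In such samples fewer cells of a type and less RNA per cell cannot be told apart. Libraries are named here by group and by the replicate number of their labels, which runs from 0.

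The choroid plexus is a vascular tissue that hangs into the brain ventricles and secretes most of the cerebrospinal fluid. Its epithelium carries water and ion transporters, is sealed by tight junctions and moves folate, thyroid hormone carriers and other solutes between blood and fluid. It is not a part of CA1, but the ventricle that holds it borders the hippocampus. Ttr, the thyroxine and retinol carrier transthyretin, is the best known product of this epithelium in the brain.

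Levels are FPKM, fragments per kilobase of transcript, scaled to the mapped fragments of the library, which are corrected for transcript length and can be compared between genes. The median FPKM of a library lay between 2.51 and 3.10, and between 18281 and 19175 genes were above 0. The number of reads behind single values is unknown, so that precision here comes from the spread between mice. Fold changes are differences between group means of log2(FPKM + 0.1), fitted with limma over 16978 genes, and they understate the change of genes with low levels. A gene was called when its two-sided Benjamini-Hochberg adjusted p over all genes tested was under 0.05. Age comparisons in AL and in CR mice share no library, whereas each of them shares a group with each diet comparison.

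A pair of libraries stood apart for these genes, CR 5 month replicates 3 and 4. Replicate 4 held the highest level of all 22 libraries for 29 of the 31 members, and replicate 3 the second highest for 21. The exceptions at the top were Wfikkn2 and Slc13a4, which were highest in AL 15 month replicate 1. Replicate 4 exceeded the median of the other 3 CR 5 month libraries by between 2.42-fold (Slc29a4) and 60.2-fold (Cldn2), with a median over the members of 12.8-fold. Replicate 3 exceeded it by 1.02-fold (Msx1) to 12.9-fold (Cldn2), with a median of 3.40-fold. The remaining 3 libraries of that group lay within the range of the AL 5 month libraries for 25 of the 31 members. The counts of called members, the choroid plexus score and the main fold changes that rest on this group are therefore also given without the pair.

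The members were also high or low together among the AL 5 month libraries. Replicate 4 was highest for 30 of 31 members, all but Slc29a4, and replicate 0 was lowest for 19. The 5 libraries came in the same order, replicates 0, 3, 1, 2 and 4, for 15 members including Ttr, Folr1, Otx2, Aqp1, Cldn2 and Krt18. At 15 months no single library held the top for most members. In AL mice replicate 2 was highest for 15 members and replicate 1 for 13, and in CR mice replicate 0 was highest for 11 and replicate 4 for 10.

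**Figure D1:**
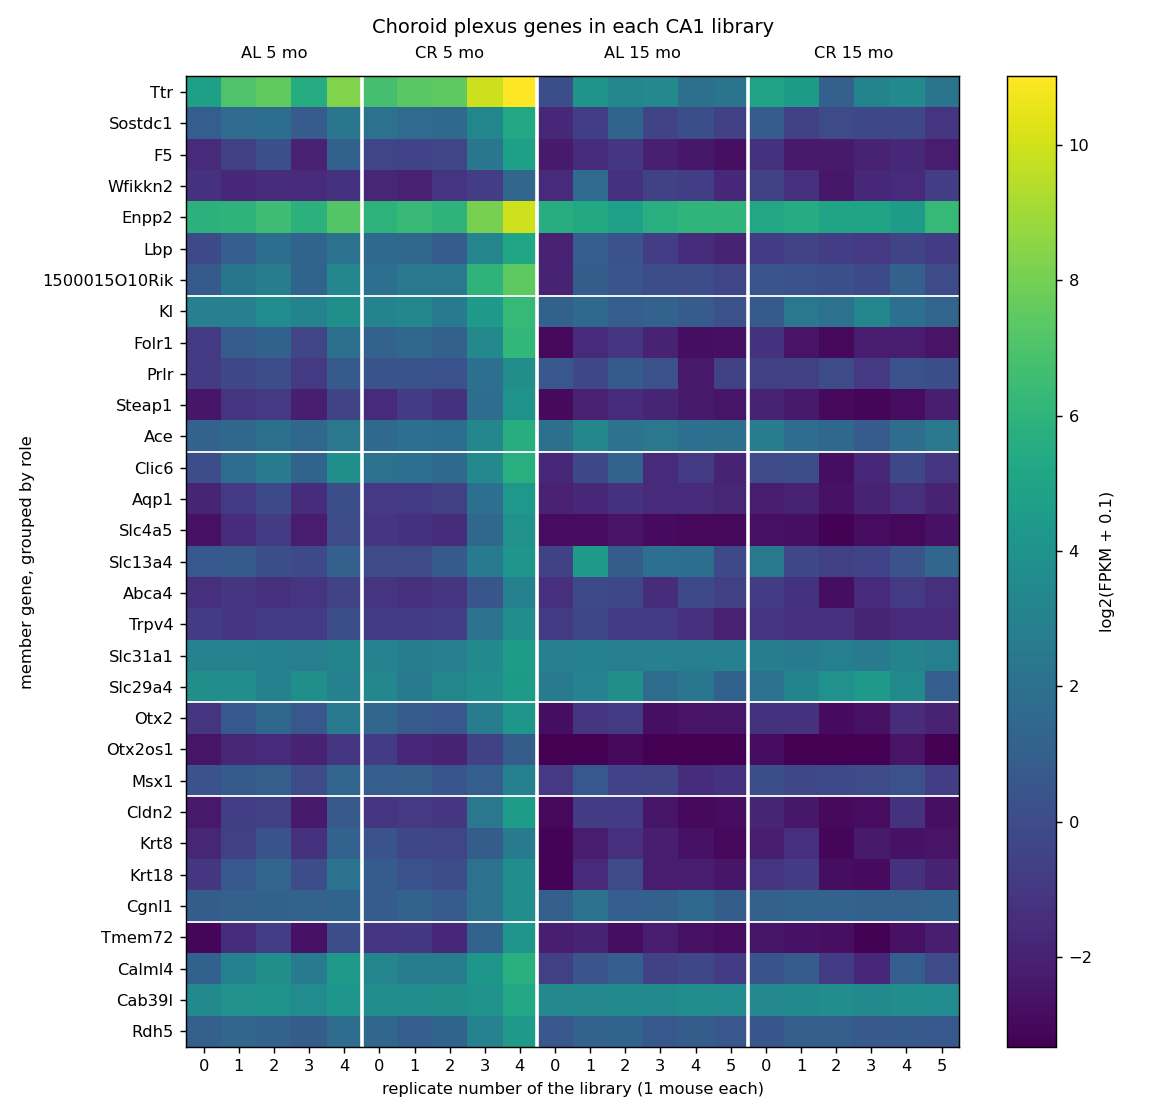
Heat map of log2(FPKM + 0.1) for the 31 choroid plexus genes (rows, grouped by role) in the 22 libraries (columns, replicate number within the 4 groups), 1 mouse per library. CR 5 month replicates 3 and 4 are brightest for most rows, and both 15 month groups are darker than the 5 month groups for Ttr, Folr1, Otx2 and Clic6.

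The choroid plexus score, the mean log2(FPKM + 0.1) of the 10 core genes, summarizes these levels. It was 0.23 ± 1.13 (SD, n = 5) in AL mice and 1.74 ± 2.01 (n = 5) in CR mice at 5 months, or 0.39 ± 0.14 (n = 3) in CR mice without replicates 3 and 4. At 15 months it was -1.67 ± 0.60 (n = 6) in AL mice and -1.72 ± 0.46 (n = 6) in CR mice. The summed FPKM of the core genes reached 55.5 in the highest AL 5 month library and 335 in the highest CR 5 month library, against at most 8.43 and 5.23 in AL and CR mice at 15 months. The lowest AL 5 month library, replicate 0, had a sum of 6.23, within the range of the AL 15 month libraries. No core gene was listed at 0 in any library, but at 15 months values went down to 0.0056 FPKM (Slc4a5 in CR replicate 2). The reads behind such values are unknown, so they do not by themselves show choroid plexus tissue in every library.

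Among the secreted proteins, Ttr spanned the widest levels. In AL 5 month replicates 0 to 4 it measured 27.9, 133, 185, 47.4 and 314 FPKM, and in the CR 5 month replicates 110, 161, 177, 955 and 2058 FPKM. At 15 months it ranged from 0.985 to 16.7 FPKM (median 6.92) in AL mice and from 2.04 to 30.6 FPKM (median 9.94) in CR mice. The 15 month libraries of each diet lay below all 5 month libraries of the same diet, with AL 5 month replicate 0 and CR 15 month replicate 0 nearly level. Within its library Ttr ranked 55th of all genes by FPKM in CR 5 month replicate 4 and 13565th in AL 15 month replicate 0.

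Enpp2, the lysophospholipase autotaxin, was the other abundant member. It measured 59.8, 63.7, 95.7, 59.4 and 144 FPKM in the AL 5 month libraries and 60.4, 83.7, 63.3, 265 and 1002 FPKM in the CR 5 month libraries. It still ranged from 28.9 to 66.0 FPKM (median 49.7) in AL mice and from 24.1 to 78.0 FPKM (median 34.9) in CR mice at 15 months, when Ttr was near 10 FPKM. Enpp2 is also made by oligodendrocytes, and at 15 months its highest CR library, replicate 5, was also the one with the highest oligodendrocyte marker score. In AL mice at 15 months this was not so. There Enpp2 was highest in replicate 4, with a marker score of 5.92. The highest score, 6.72, was in replicate 3, with 51.2 FPKM of Enpp2. The cells behind the Enpp2 level were not tested. The 15 and 5 month libraries overlapped in both diets.

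The other secreted members were lower. Group medians of Sostdc1, an antagonist of BMP and Wnt ligands, were 3.17 and 3.93 FPKM in AL and CR mice at 5 months and 0.609 and 0.756 FPKM at 15 months. Lbp, the lipopolysaccharide binding protein, had medians of 2.37 and 2.85 FPKM at 5 months and 0.385 and 0.497 FPKM at 15 months. 1500015O10Rik, the gene of the peptide precursor augurin, had medians of 4.73 and 5.20 FPKM at 5 months and 0.957 and 1.07 FPKM at 15 months. These 3 genes had lower medians at 15 months in both diets, as did F5, coagulation factor V, with medians of 0.549 and 0.712 FPKM at 5 months and 0.121 and 0.133 FPKM at 15 months. Wfikkn2, a secreted protein with protease inhibitor domains, did not share this order. Its medians were 0.250 and 0.355 FPKM at 5 months and 0.427 and 0.258 FPKM at 15 months, and AL 15 month replicate 1 alone reached 3.08 FPKM.

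Of the receptors and membrane enzymes, Kl encodes klotho, the coreceptor of fibroblast growth factor 23, and lies at chr5:150952607-150993817 (mm10, plus strand). Kl measured 7.48, 7.51, 11.999, 8.62 and 13.9 FPKM in the AL 5 month libraries and 8.52, 10.1, 6.12, 21.5 and 77.4 FPKM in the CR 5 month libraries. It ranged from 1.08 to 2.92 FPKM (median 1.95) in AL mice and from 1.58 to 9.52 FPKM (median 3.81) in CR mice at 15 months. AL libraries of the 2 ages did not overlap, whereas CR 15 month replicate 3 lay within the CR 5 month range. That library was highest of its group for Kl and Slc29a4 only, and its choroid plexus score of -2.13 was the second lowest of the group. Its dentate granule cell marker score, 4.21, was the highest of all libraries. Over the 15 month libraries, deviations from group means of Kl and of CA1 pyramidal neuron markers gave r = 0.51, against 0.06 for Slc29a4. The cells behind the Kl and Slc29a4 levels were not tested.

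Folr1, the folate receptor that carries folate into the cerebrospinal fluid (chr7:101858331-101870788, minus strand), was separated by age in both diets. It measured 0.438, 1.70, 2.06, 0.687 and 3.80 FPKM in the AL 5 month libraries and 2.13, 2.77, 2.01, 10.7 and 70.7 FPKM in the CR 5 month libraries. At 15 months it ranged from 0.0228 to 0.375 FPKM (median 0.110) in AL mice and from 0.0244 to 0.331 FPKM (median 0.0905) in CR mice. All 15 month libraries lay below all 5 month libraries, as they also did for Calml4 and Otx2os1. The gene Anapc15 overlaps Folr1 on the opposite strand, and the library kit does not mark strand, so that reads from their shared stretch cannot be told apart.

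Prlr, the prolactin receptor, and Ace, the angiotensin-converting enzyme, did not follow Folr1. Prlr measured 0.492, 0.742, 0.932, 0.442 and 1.55 FPKM in the AL 5 month libraries and 1.22, 1.23, 1.10, 3.72 and 13.4 FPKM in the CR 5 month libraries, with medians of 0.895 and 0.727 FPKM in AL and CR mice at 15 months (ranges 0.0988 to 1.55 and 0.419 to 1.14). The AL libraries of both ages overlapped. Ace measured 2.21, 2.70, 3.86, 2.71 and 4.99 FPKM in the AL 5 month libraries and 2.97, 3.62, 3.45, 9.82 and 47.7 FPKM in the CR 5 month libraries. It ranged from 3.64 to 9.43 FPKM (median 4.05) in AL mice and from 1.61 to 6.57 FPKM (median 3.36) in CR mice at 15 months, so that the AL median was the higher one at 15 months. Steap1, a member of a family of metalloreductases, had medians of 0.345 and 0.471 FPKM at 5 months and 0.123 and 0.0733 FPKM at 15 months.

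Among the transporters and channels, Clic6, a chloride intracellular channel protein, measured 0.951, 3.24, 6.24, 2.34 and 14.2 FPKM in the AL 5 month libraries and 4.17, 3.67, 2.91, 10.7 and 50.2 FPKM in the CR 5 month libraries. It ranged from 0.164 to 2.13 FPKM (median 0.338) in AL mice and from 0.0466 to 0.926 FPKM (median 0.572) in CR mice at 15 months. AL 15 month replicate 2 overlapped the AL 5 month libraries, whereas the CR groups did not overlap.

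Aqp1, the water channel of the apical membrane, measured 0.178, 0.431, 0.843, 0.272 and 0.974 FPKM in the AL 5 month libraries and 0.425, 0.438, 0.555, 3.62 and 19.7 FPKM in the CR 5 month libraries. It ranged from 0.145 to 0.315 FPKM (median 0.216) in AL mice and from 0.0643 to 0.293 FPKM (median 0.163) in CR mice at 15 months. Again only the CR groups did not overlap. Slc4a5, a sodium bicarbonate cotransporter, had medians of 0.259 and 0.383 FPKM at 5 months and 0.0364 and 0.0461 FPKM at 15 months. The remaining 5 were not called in any contrast. Slc31a1, a copper transporter, had medians between 6.91 and 7.99 FPKM in all 4 groups, and Slc29a4, a monoamine transporter, between 5.22 and 13.2 FPKM. Trpv4, a cation channel that senses osmotic swelling, had medians of 0.457 and 0.502 FPKM at 5 months and 0.444 and 0.261 FPKM at 15 months. Slc13a4, a sulfate transporter, and Abca4, a retinoid transporter, had higher medians at 15 than at 5 months in AL mice (2.65 against 1.47 FPKM and 0.656 against 0.359 FPKM) and lower ones in CR mice (0.940 against 1.56 FPKM and 0.302 against 0.373 FPKM).

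**Figure D2:**
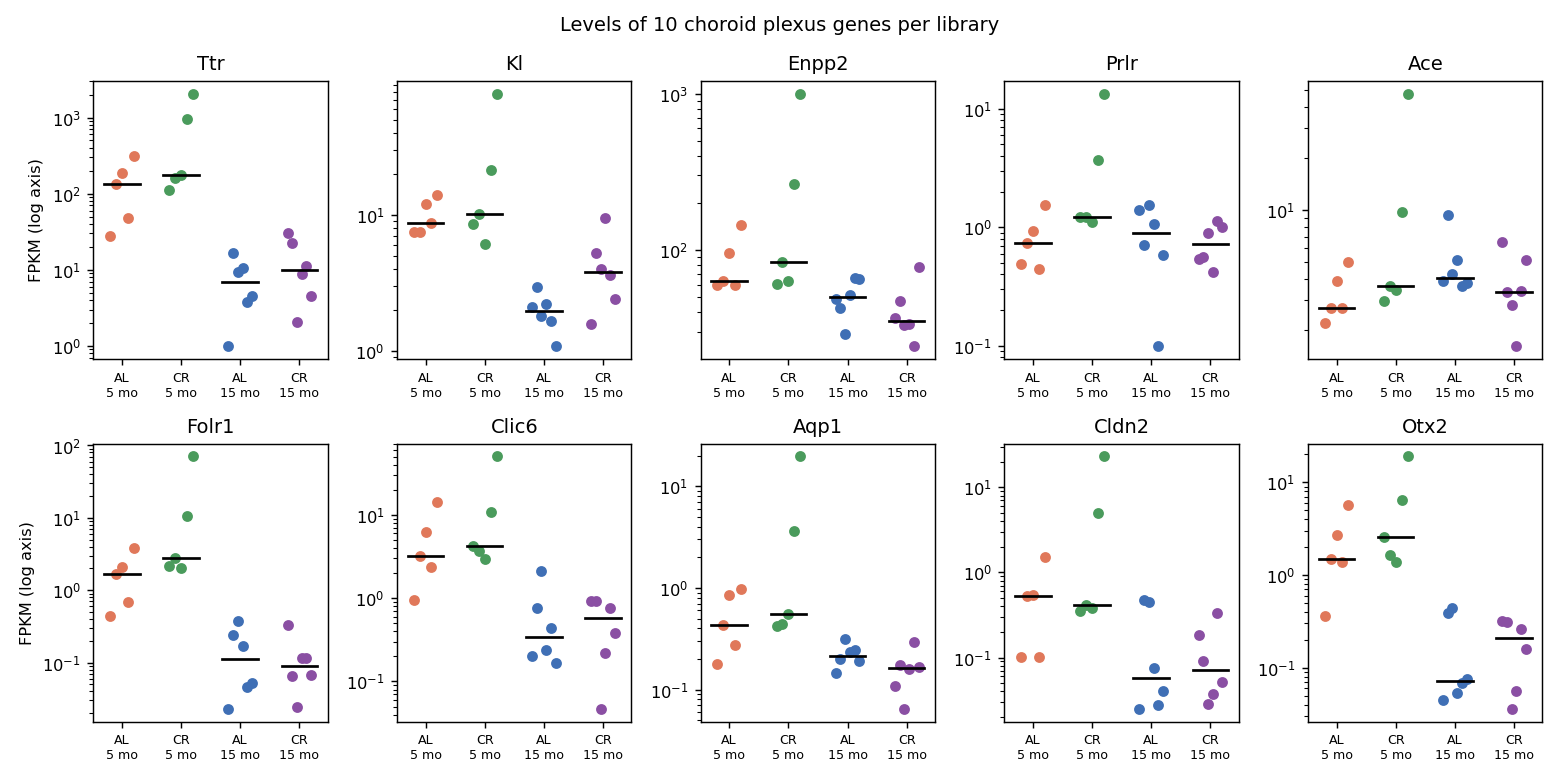
FPKM (log axis) of 10 choroid plexus genes in each library of the 4 groups; points are single mice and bars group medians. Ttr, Kl and Folr1 of AL mice separate by age, Prlr and Ace of AL mice do not, and CR 5 month replicates 3 and 4 are the 2 highest green points of each panel.

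Otx2, the homeobox factor that maintains choroid plexus identity, lies at chr14:48657677-48673819 on the minus strand, and the noncoding gene Otx2os1 (chr14:48668708-48870683, plus strand) overlaps its 5′ part. Otx2 measured 0.363, 1.47, 2.67, 1.38 and 5.73 FPKM in the AL 5 month libraries and 2.54, 1.64, 1.39, 6.50 and 19.0 FPKM in the CR 5 month libraries. It ranged from 0.0452 to 0.446 FPKM (median 0.0721) in AL mice and from 0.0357 to 0.321 FPKM (median 0.208) in CR mice at 15 months. AL 5 month replicate 0 lay among the 15 month libraries, and the CR groups did not overlap.

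Otx2os1 was above 0 in all 10 libraries at 5 months, between 0.0724 and 1.75 FPKM. At 15 months it was listed at 0 in 5 of 6 AL libraries and in 4 of 6 CR libraries, with 0.0713 FPKM the highest value. Reads from the stretch that Otx2 and Otx2os1 share cannot be assigned to a strand. Msx1, a second homeobox factor, had medians of 1.55 and 1.86 FPKM at 5 months and 0.521 and 0.852 FPKM at 15 months.

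The sequence that OTX2 and related homeobox factors are known to prefer, TAATCC or, read from the opposite strand, GGATTA, was looked for in the 250 bases before each annotated RefSeq gene start (GRCm38.p6, the assembly of mm10). Of 24 members with an entry there, 3 held it, or 3 of 31 windows (9.68%), against 2054 of 32851 windows (6.25%) over all genes. No entry was held for Ttr, Folr1, Clic6, Otx2os1, Sostdc1, Enpp2 and Lbp. The matches of Abca4 and Ace are shown because they and Otx2 are the only searched members with one. The motif is in capitals, on the strand of the gene. The match of Otx2 itself, 211 bases before its start, lies in untranslated exons of other annotated Otx2 transcripts and is not printed. A match describes letters and not binding.
Abca4, chr3:122044390-122044419, plus strand, 58 bases before the start: gtaattagagggGGATTAtgcttgaagggg
Ace, chr11:105967909-105967938, plus strand, 27 bases before the start: ggctgggttttaTAATCCgcagggcggtcg
Abca4 and Ace, which hold the motif, were fitted higher at 15 months in AL mice without being called, whereas Otx2 was called lower. In CR mice both were fitted lower at 15 months, Abca4 at -1.44 and Ace at -1.01, again without being called, and Otx2 was called lower. A link between the motif and these directions was not tested.

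Of the junction proteins and keratins, Cldn2, the pore-forming claudin of leaky epithelia, measured 0.1004, 0.524, 0.545, 0.102 and 1.51 FPKM in the AL 5 month libraries and 0.351, 0.418, 0.384, 4.96 and 23.1 FPKM in the CR 5 month libraries. It spanned 0.0248 to 0.481 FPKM (median 0.0581) in AL mice and from 0.0287 to 0.331 FPKM (median 0.0714) in CR mice at 15 months, and it overlapped between the ages in AL mice but not in CR mice. The keratins of simple epithelia, Krt8 and Krt18, had medians of 0.556 and 1.41 FPKM in AL mice and 1.19 and 1.71 FPKM in CR mice at 5 months. At 15 months these were 0.0880 and 0.120 FPKM in AL mice and 0.0875 and 0.240 FPKM in CR mice. Cgnl1, a protein of the junctional plaque, stayed between 1.96 and 2.21 FPKM by median in all groups.

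The last 4 members have other roles. Calml4, a calmodulin-like protein, had medians of 7.71 and 9.13 FPKM at 5 months and 0.661 and 1.06 FPKM at 15 months. Tmem72, a transmembrane protein, had medians of 0.266 and 0.394 FPKM at 5 months and 0.0898 and 0.0581 FPKM at 15 months. Cab39l, a partner of the kinase LKB1, and Rdh5, a retinol dehydrogenase, stayed closer between groups, with medians between 11.5 and 14.9 FPKM and 1.56 and 2.56 FPKM. Across the 31 members the group medians were lower at 15 than at 5 months for 26 in AL mice and for all 31 in CR mice, or 27 without CR 5 month replicates 3 and 4.

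In AL mice the comparison of 15 with 5 months addressed normal aging. Of the 31 members 12 were called, all 12 lower at 15 months, in a contrast where 20.6% of all genes were called and 9.97% were called lower. The fit was lower for 26 members and higher for 5, with a median log2 fold change of -1.11 over the members against 0.00 over all genes. The AL groups did not overlap for Ttr, Kl, Folr1, Otx2os1 and Calml4, 5 members, against 6.77% of all genes in that direction, and for 0 in the other direction, against 7.27%. By role, the called members were 3 of 7 secreted proteins, 2 of 5 receptors and membrane enzymes, 1 of 8 transporters and channels, 3 of 3 in the group of Otx2, Otx2os1 and Msx1, 2 of 4 junction proteins and keratins and 1 of 4 others.

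Ttr fell by 4.15 on the log2 scale (SE 0.87, limma adjusted p = 0.00274), with a mean of 141 ± 116 FPKM (SD) at 5 months and 7.65 ± 5.72 FPKM at 15 months. Kl fell by 2.29 (SE 0.50, limma adjusted p = 0.00366), from 9.90 ± 2.89 to 1.96 ± 0.614 FPKM. For both genes an exact permutation test (two-sided, on these means) gave p = 0.00216, the smallest that 462 divisions of 5 and 6 libraries allow. Calml4 fell by 3.11 (SE 0.61, limma adjusted p = 0.00172) and Otx2 by 2.90 (SE 0.65, limma adjusted p = 0.00417). Clic6 fell by 2.78 (SE 0.77, limma adjusted p = 0.0148) and Folr1 by 2.71 (SE 0.73, limma adjusted p = 0.0128).

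The other 6 called members were 2 keratins, 2 secreted proteins, Otx2os1 and Msx1. Krt18 fell by 2.56 (SE 0.67, limma adjusted p = 0.0109), and Krt8 fell by 1.996 (SE 0.54, limma adjusted p = 0.0128). Lbp fell by 2.02 (SE 0.65, limma adjusted p = 0.0320) and Sostdc1 by 1.83 (SE 0.57, limma adjusted p = 0.0286). Otx2os1 fell by 1.48 (SE 0.36, limma adjusted p = 0.00768), a value that depends on the added 0.1 FPKM because most 15 month libraries are listed at 0, and Msx1 by 1.33 (SE 0.39, limma adjusted p = 0.0208). The 5 members fitted higher, Slc13a4 (0.91), Wfikkn2 (0.78), Ace (0.56), Abca4 (0.41) and Cgnl1 (0.14), were not called. Clic6 was not called without AL 5 month replicate 4 (adjusted p = 0.0516), and Msx1, Sostdc1 and Lbp were each not called without 1 of several libraries, with adjusted p between 0.0506 and 0.0835. With 1 FPKM added in place of 0.1, 5 members were called, all lower. Of 16978 genes in that fit 3452 were called, 1647 of them lower. Without CR 5 month replicates 3 and 4, which enter the error estimate that all groups share, 16 members were called in AL mice, all lower, against 9.37% of all genes called lower.

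In CR mice 19 of the 31 members were called between 15 and 5 months, all 19 lower at 15 months, against 3.36% of all genes called and 2.26% called lower. All 31 were fitted lower, with a median of -2.74 over the members and 0.00 over all genes. The CR groups did not overlap for 19 members, against 2.11% of all genes in that direction, and without CR 5 month replicates 3 and 4 for 19 again, against 3.47%. The 12 members called in AL mice were all among these 19, which is 100% of the shorter list and 63.2% of the longer one. The 7 called in CR mice alone were Aqp1, Slc4a5, Tmem72, F5, Enpp2, Steap1 and 1500015O10Rik.

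Ttr fell by 5.27 (SE 0.87, limma adjusted p = 0.00153), from 692 ± 840 to 13.3 ± 11.1 FPKM, and Kl by 2.01 (SE 0.50, limma adjusted p = 0.0288), from 24.7 ± 30.1 to 4.402 ± 2.81 FPKM. Folr1 fell by 4.97 (SE 0.73, limma adjusted p = 0.000535), Clic6 by 3.88 (SE 0.77, limma adjusted p = 0.00610) and Otx2 by 3.87 (SE 0.65, limma adjusted p = 0.00170). Calml4 fell by 3.78 (SE 0.61, limma adjusted p = 0.00109) and 1500015O10Rik by 3.72 (SE 0.80, limma adjusted p = 0.0116). The exact permutation p was 0.00216 for Ttr and 0.0108 for Kl.

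Krt18 fell by 3.19 (SE 0.67, limma adjusted p = 0.00906), Slc4a5 by 3.18 (SE 0.71, limma adjusted p = 0.0141), Lbp by 3.12 (SE 0.65, limma adjusted p = 0.00833), and Krt8 fell by 3.004 (SE 0.54, limma adjusted p = 0.00259). Sostdc1 fell by 2.98 (SE 0.57, limma adjusted p = 0.00490) and Otx2os1 by 2.32 (SE 0.36, limma adjusted p = 0.00103). The other 6 called, F5, Steap1, Aqp1, Tmem72, Enpp2 and Msx1, had log2 fold changes of -3.18 to -1.41 and limma adjusted p of 0.0201 to 0.0499. Without CR 5 month replicates 3 and 4 the count was 7 of 31 (Ttr, Folr1, Otx2, Otx2os1, Sostdc1, Calml4 and Krt8), against 1.32% of all genes called and 0.991% called lower, where with all libraries these shares were 3.36% and 2.26%. Then 27 members were fitted lower and the median over the members was -1.28. In that fit Ttr was at -3.97 (SE 0.88, limma adjusted p = 0.0308), Folr1 at -3.56 (SE 0.54, limma adjusted p = 0.00444), Otx2 at -2.85 (SE 0.62, limma adjusted p = 0.0295) and Calml4 at -2.94 (SE 0.62, limma adjusted p = 0.0228). Not called in it were Kl at -1.08 (SE 0.40, limma adjusted p = 0.226), Clic6 at -2.81 (limma adjusted p = 0.0837) and 1500015O10Rik at -1.92 (limma adjusted p = 0.0846). The exact permutation p was then 0.0119 for Ttr, the smallest that 84 divisions of 6 and 3 libraries allow, and 0.0952 for Kl. Without replicate 3 alone the count was 12, for which no share of all genes is given here. Kl was not called without any one of CR 5 month replicates 3 and 4 and CR 15 month replicates 0 and 5 (limma adjusted p 0.0637 to 0.0681).

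CR against AL at 5 months gave no called member and no called gene (0% of all genes) with limma. All 31 members were fitted higher in CR mice, with a median of 1.07, and 12 had an unadjusted p under 0.05, as did 4.65% of all genes. Ttr was fitted 1.85 higher (SE 0.91, limma adjusted p = 1, exact permutation p = 0.135) and Kl 0.68 higher (SE 0.52, limma adjusted p = 1, exact permutation p = 0.405). The lowest exact permutation p of a member was 0.0476, for Prlr. Without replicates 3 and 4 the median over the members was 0.02, 17 were fitted higher and 14 lower, Ttr was fitted at 0.54 and Kl at -0.24, no member was called, and 0 had an unadjusted limma p under 0.05, against 4.36% of all genes.

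At 15 months no member was called between CR and AL mice, where 0.742% of all genes were. The fit was higher in CR mice for 15 members and lower for 16, with a median of -0.02, and no member had an unadjusted limma p under 0.05. Ttr was fitted 0.73 higher in CR mice (SE 0.83, limma adjusted p = 0.684, exact permutation p = 0.387). Kl was fitted 0.97 higher (SE 0.48, limma adjusted p = 0.306), and 5 of 6 CR libraries lay above the AL median. Its exact permutation p, not adjusted over the 31 members, was 0.0346, the only one under 0.05. The libraries of the diets overlapped for all 31 members, while 0.424% of all genes were separated with CR higher and 0.56% with CR lower. At the other end Slc13a4 was fitted at -0.93 (SE 0.78), Abca4 at -0.79 (SE 0.56) and Wfikkn2 at -0.73 (SE 0.54).

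**Figure D3:**
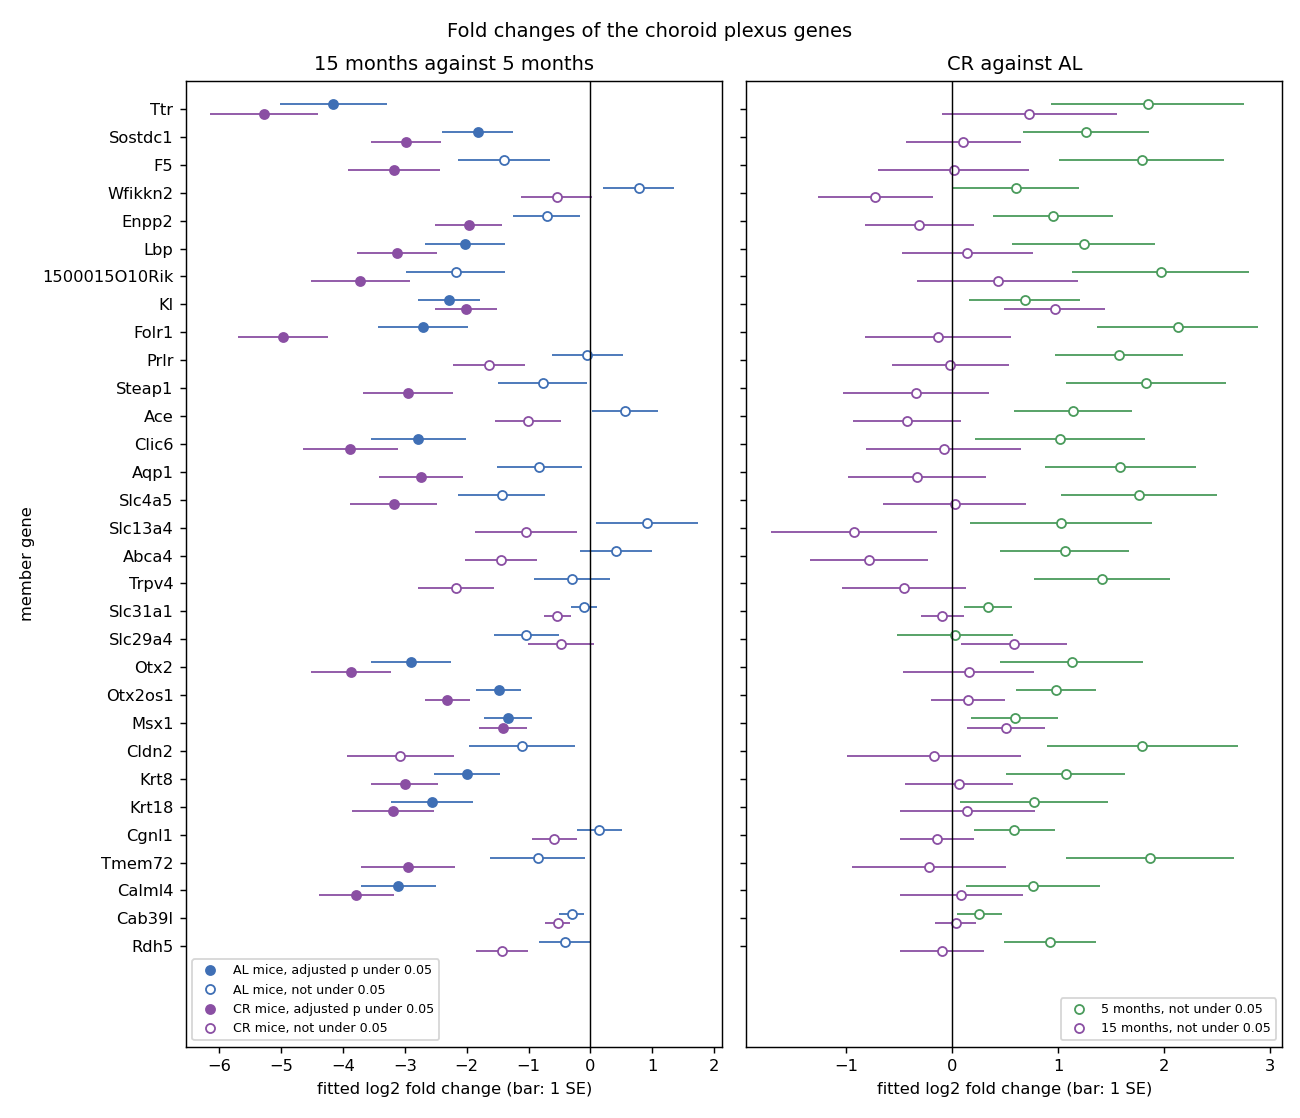
Fitted log2 fold changes (points) with their SE (bars) of the 31 members, at left 15 against 5 months in AL and in CR mice, at right CR against AL at 5 and at 15 months; filled points have an adjusted p under 0.05 over all genes. Filled points, 12 in AL and 19 in CR mice, are on the age side only and all below 0, and at 5 months all 31 open points lie above 0.

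Whether the change with age differed between the diets was tested by the age by diet interaction. Time under restriction rose with age in CR mice, so the interaction cannot separate the 2. No member and no gene was called (0%) with limma, while 5 members and 7.66% of all genes had an unadjusted p under 0.05. The interaction was -1.12 for Ttr (SE 1.23, limma adjusted p = 0.829) and 0.28 for Kl (SE 0.71, limma adjusted p = 0.935). The longer list of called members in CR mice is thus not shown to be a difference between the diets. Without CR 5 month replicates 3 and 4 the interaction was 0.19 for Ttr and 1.21 for Kl (SE 0.52, limma adjusted p = 0.777), and 1 member and 6.38% of all genes had an unadjusted p under 0.05.

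Members outside the core were set against the choroid plexus score of the same library, over deviations from the 4 group means so that age and diet do not enter. Over the 22 libraries Pearson's r was 0.83 for Ttr and 0.69 for Kl. It ranged over the members, core genes included, from 0.23 (Slc29a4) to 0.97 (F5). Each core gene was set against the mean of the other core genes only. Libraries are shared by all these values, and the 2 libraries farthest from the median score were CR 5 month replicates 3 and 4. Without them, and with group means taken again over the 20 libraries kept, r was 0.79 for Ttr and 0.16 for Kl. Over the 12 libraries at 15 months r was 0.74 for Ttr but -0.15 for Kl, -0.47 for Enpp2 and -0.27 for Cab39l, whereas over the 10 at 5 months these were 0.96, 0.94, 0.96 and 0.96. Over the 8 libraries at 5 months without CR replicates 3 and 4, r was 0.96 for Ttr, 0.76 for Kl, 0.87 for Enpp2 and 0.98 for Cab39l. The difference in r between the ages was not tested.

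**Figure D4:**
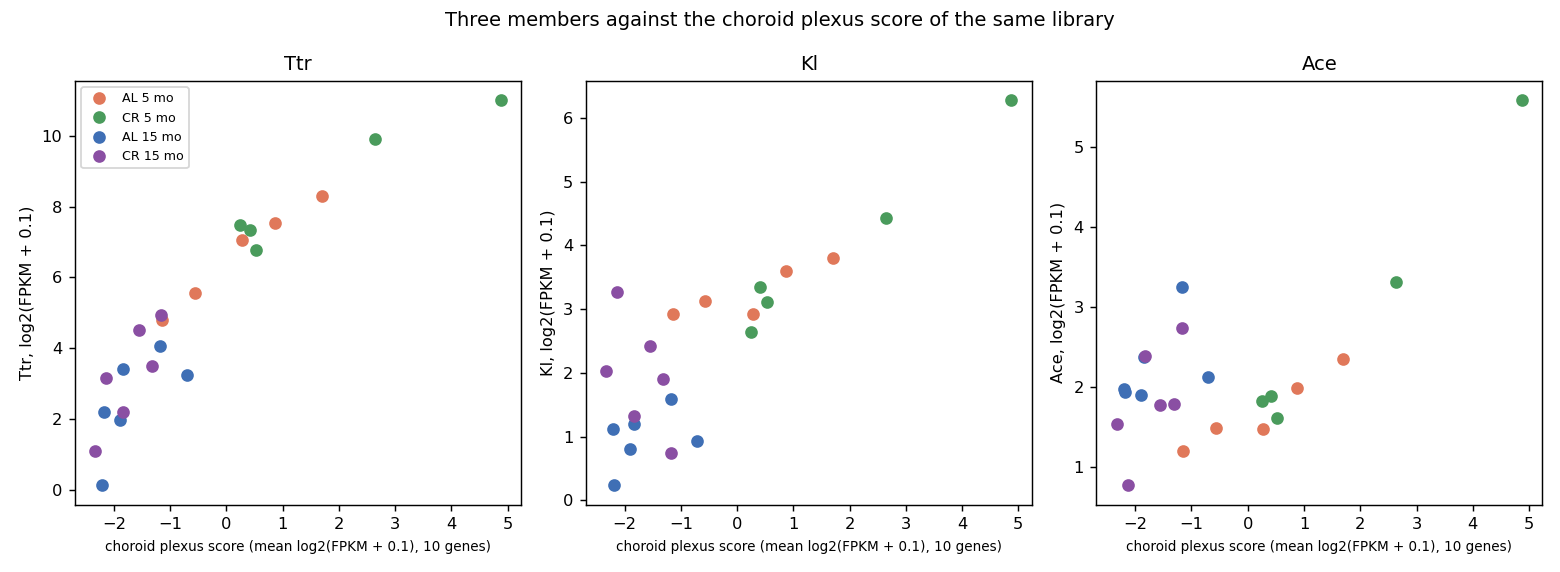
Log2(FPKM + 0.1) of Ttr, Kl and Ace (vertical) against the choroid plexus score of the same library (horizontal, mean log2(FPKM + 0.1) of 10 core genes), 1 point per mouse. Ttr rises with the score at both ages but lies nearer to it at 15 months (4.17 ± 1.09 log2 units above it in AL mice, against 6.42 ± 0.36 at 5 months), Kl at 15 months shows no such rise (r over 12 libraries -0.15), and the AL 15 month points of Ace lie above the 5 month points of like score.

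Ttr stood 6.42 ± 0.36 log2 units above the score in AL and 6.76 ± 0.53 above it in CR mice at 5 months, and 4.17 ± 1.09 and 4.95 ± 1.09 at 15 months. This distance was thus smaller at 15 months, where several core genes had medians near the added 0.1 FPKM, which limits how low the score can be. With the score as a covariate in the fit, Ttr was still called between 15 and 5 months in AL mice, at -2.08 (SE 0.60, limma adjusted p = 0.0317). Kl was then at -1.30 (SE 0.45, limma adjusted p = 0.0658). In the same fit 7 of the 21 members outside the core were called higher at 15 months, Wfikkn2, Slc13a4, Steap1, Ace, Abca4, Trpv4 and Cgnl1, none of which was called without the covariate, and Ttr alone was called lower. Of all genes 5.74% were called higher and 4.75% lower in that fit. Its slope on the score is shared by all groups, and CR 5 month replicates 3 and 4 had the highest scores, 2.64 and 4.88. The covariate was not tried without them, so these calls are not shown to hold for a slope of AL mice alone. In CR mice no member outside the core was called with the covariate, nor was any of the 16978 genes (0%), and Ttr was at -1.49 (limma adjusted p = 0.786). The score itself did not overlap between the CR ages, with at most -1.17 at 15 months and at least 0.25 at 5 months. The covariate thus stands largely for age in CR mice, so the lack of calls there cannot tell the score from age.

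Markers of other cells were read in the same libraries. Of 7 tested markers of ependyma and motile cilia, the ciliated lining of the ventricles, 6 were called lower at 15 months in AL mice and 7 in CR mice, with medians of -2.07 and -2.39; without CR 5 month replicates 3 and 4 it was 5 in CR mice. Their summed FPKM was 16.2 to 57.5 in AL and 35.8 to 78.4 in CR mice at 5 months, and 6.94 to 23.4 and 4.76 to 11.4 at 15 months. Of 6 CA1 pyramidal neuron markers 3 were called lower, and of 6 neocortex and subiculum markers 3 were called higher, at 15 months in AL mice. No marker of these latter lists was called with age in CR mice. Of all genes 9.97% were called lower and 10.7% higher in AL mice. In CR mice 2.26% were called lower, or 0.991% without CR 5 month replicates 3 and 4. The summed FPKM of the CA1 list was 216 to 473 (AL) and 280 to 416 (CR) at 5 months, and 189 to 276 and 85.1 to 419 at 15 months. The part of these differences in the levels of the choroid plexus genes was not tested, and what was dissected cannot be told apart from age, since no label gives a dissection batch.

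Endothelial markers, by contrast, did not single out the pair of libraries with the highest choroid plexus score. Summed endothelial FPKM was lowest of the CR 5 month libraries in replicate 4, at 52.6, and highest in replicate 3, at 77.6, against 70.1 to 88.2 in the AL 5 month libraries. Other list scores did differ in the pair. Replicate 4 was highest of its group for ependyma (3.40), oligodendrocyte (7.19), CA3 (4.63), dentate granule cell (3.05) and thalamus (1.84) markers. It was lowest for neocortex and subiculum (2.17). Replicate 3 was highest for that list (2.87) and for meninges and fibroblasts (1.78). The part of other tissue in the levels of the pair was not tested. None of the 6 endothelial and 7 meningeal or fibroblast markers was called in any contrast. The score of the meninges and fibroblast list was highest of all libraries in AL 15 month replicate 1, at 3.72 against at most 1.83 in the other AL 15 month libraries. The same library was highest of its group for 13 members, Ttr, Kl, Tmem72, Cldn2, Wfikkn2, Slc13a4, Lbp, Msx1, Ace, Trpv4, Slc31a1, Cgnl1 and 1500015O10Rik, and the part of meningeal tissue in their levels was not tested. In the remaining lists, 1 of 6 oligodendrocyte and 2 of 5 dentate granule cell markers were called lower at 15 months in AL mice. Of 5 astrocyte markers 1 was called lower and 1 higher there, as were 1 and 1 of 5 CA3 markers, and 2 of 4 thalamus and 1 of 4 tested medial habenula markers were called higher. In that contrast 9.97% of all genes were called lower and 10.7% higher, so single calls in such short lists say little. None of these lists had a called marker with age in CR mice.

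**Figure D5:**
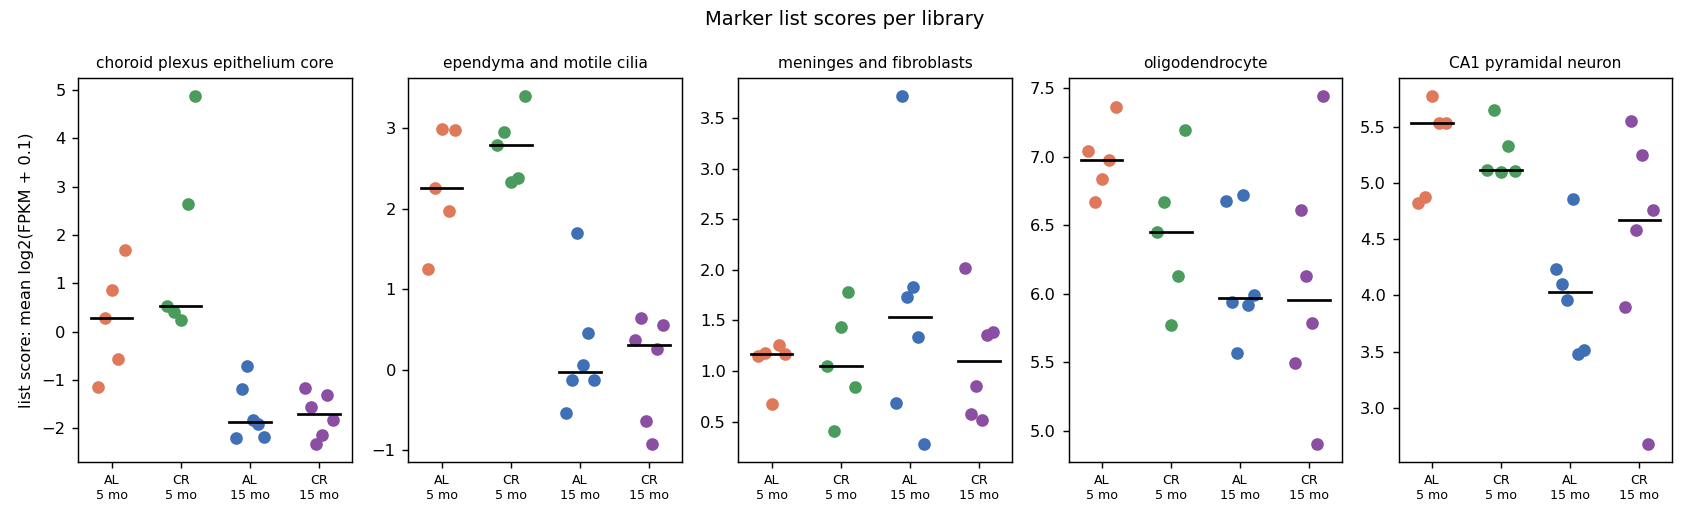
List scores, mean log2(FPKM + 0.1) over the markers of each cell type, per library in the 4 groups; points are single mice and bars group medians, and each panel has its own axis. The choroid plexus core and ependyma scores are lower in both 15 month groups, and AL 15 month replicate 1 is the highest point of the meninges panel at 3.72.

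A list of 20 further choroid plexus genes that are not members was read as well, and all were tested. At 15 months in AL mice 1 was called lower and 2 higher, against 9.97% and 10.7% of all genes. In CR mice 4 were called lower, against 2.26% of all genes. In AL mice Stra6, the retinol uptake receptor, fell by 1.51 (SE 0.47, limma adjusted p = 0.0275), and Spint2, a serine protease inhibitor, and Slc4a10, a bicarbonate transporter that neurons also express, rose by 1.15 (SE 0.33, limma adjusted p = 0.0188) and 0.33 (SE 0.11, limma adjusted p = 0.0370). In CR mice Kcne2, a potassium channel subunit, fell by 3.80 (SE 0.76, limma adjusted p = 0.00693), Cox8b by 2.23 (SE 0.57, limma adjusted p = 0.0308), Cldn3 by 1.79 (SE 0.46, limma adjusted p = 0.0326) and the serotonin receptor Htr2c by 1.46 (SE 0.36, limma adjusted p = 0.0268). Without CR 5 month replicates 3 and 4 only Kcne2 of the 20 was called in CR mice. None was called for diet. Their median log2 fold change with age was -0.18 in AL mice, against -1.11 for the members. CR 5 month replicate 4 was highest of its group for 19 of the 20, all but Cldn3, and AL 5 month replicate 4 for 15.

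Among 13813 genes outside the list with a mean of at least 1 FPKM, the 10 whose deviations were most like those of the score were Kcne2 (r = 0.95), Col8a2 (0.93), 1110059M19Rik (0.91), Slc2a12 (0.90), Mdfic (0.90), Wdr86 (0.89), Ccdc135 (0.89), Wfdc2 (0.88), Galm (0.86) and Kcnj13 (0.85), over 22 libraries. Kcnj13, Kcne2 and Slc2a12 are themselves in the list of 20 further choroid plexus genes. All 10 were highest of their group in CR 5 month replicate 4 and in AL 5 month replicate 4. The score was also highest of its group in these libraries, so this follows largely from how the genes were picked. With CR 5 month replicates 3 and 4 left out and the group means kept, r ran from 0.76 (Kcnj13) to 0.92 (Kcne2). At 15 months 1110059M19Rik and Ccdc135 were called lower in AL mice, by 3.16 (SE 0.76, limma adjusted p = 0.00651) and 2.07 (SE 0.52, limma adjusted p = 0.00923). In CR mice 6 of the 10 were called lower, Kcne2, Col8a2, 1110059M19Rik, Wdr86, Ccdc135 and Wfdc2, and without CR 5 month replicates 3 and 4 there were 3, Kcne2, Col8a2 and Ccdc135. Of all genes 9.97% were called lower in AL mice, 2.26% in CR mice and 0.991% in CR mice without these 2 libraries.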

How the data were processed

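Expression values are the FPKM matrix as the authors deposited it. Per the submitters' processing notes and the study's methods, the authors used bcl2fastq for base calls, TopHat for alignment of paired reads to mm10, Picard for removal of duplicates and Cufflinks for FPKM, corrected for fragment bias and multiply mapping reads. Tool versions and the gene annotation release are not given in the sources used here. Libraries came from an mRNA kit that does not mark strand. The depth behind single values is unknown, so no counting intervals are given.

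Genes with a mean of at least 0.1 FPKM over the 22 libraries, 16978 in all, were fitted as log2(FPKM + 0.1) in 1 model of the 4 groups (limma 3.58.1 in R 4.3.3, eBayes with trend), and called at an adjusted p under 0.05 over all genes of a contrast. An exact permutation test of the group means (two-sided) was added for single genes. The steps were tested on simulated data. Levels and figures were made in Python 3.11.15 (pandas 2.3.3, numpy 2.4.6, matplotlib 3.10.9, scipy 1.17.1). Coordinates are from GENCODE release M21 (GRCm38) and promoter sequences from RefSeq.

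The members, marker lists and tests were chosen with earlier results of these data known. Fold changes are given for Ttr and Kl in each contrast and for called members, up to the 12 smallest adjusted p. Values in every library are given for Ttr, Kl, Folr1, Otx2, Aqp1, Cldn2, Clic6, Enpp2, Prlr and Ace. Further named genes are the 10 non-members most like the score and called genes of a list of 20 other choroid plexus genes; other markers are given by counts, and Dnah6 of the ependyma list was not used here. Other members named by a fitted value, such as those fitted higher with age in AL mice, were chosen after their values were seen. Replicates are separate mice. Alternatives were a pseudocount of 1 or 0.01, other filters on low values, a common median, quantile normalization, eBayes without trend, separate fits, the replicate number as a block, the score as a covariate and each library left out in turn. Omission of CR 5 month replicates 3 and 4 together was added after seeing the data.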

Additional observations from a re-analysis of the deposited data

Results flagged for a closer look

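Over 124 groups of member levels (31 members in 4 groups) and 4 of the choroid plexus score, 128 in all, 6 groups of member levels had a library that stood far from the rest of its group on the log2(FPKM + 0.1) scale; by chance alone about 1 in 20 groups is marked in this way. The measure is the gap to the nearest other library as a share of the whole range of the group, with limits of 0.710 for 5 and 0.625 for 6 libraries. In CR 5 month replicate 4 the gap was 0.792 of the range for Msx1, at 7.85 FPKM, and 0.791 for Cab39l, at 38.3 FPKM. In AL 5 month replicate 4 it was 0.806 for Trpv4, at 0.976 FPKM. In AL 15 month replicate 1 it was 0.662 for Wfikkn2, at 3.08 FPKM, and 0.646 for Ace, at 9.43 FPKM. In AL 15 month replicate 2 it was 1.0 for Otx2os1, the only library of that group not listed at 0.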

How the results depend on the processing

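Over the alternatives other than the score covariate, which is made of core members, 154 of 159 counts of called members stayed within 1.5 times the reported count. Most of these were for diet and the interaction, where every count was 0. For age, 31 counts stayed and 1 moved in AL mice, and 28 stayed and 4 moved in CR mice. Of the fold changes given for named members over all alternatives 951 kept direction and side of the threshold, 48 kept direction without the call and 6 reversed. With 1 FPKM added, called members between 15 and 5 months numbered 5 in AL mice (3452 of 16978 genes called) and 12 in CR mice (502 genes called). They numbered 10 in CR mice in a separate fit of the CR groups (324 of 16978 genes called). Without CR 5 month replicates 3 and 4 they numbered 7 in CR mice (1.32% of all genes called). In AL mice they then numbered 16, all lower (9.37% of all genes called lower). Leaving out each library in turn gave 8 to 14 in AL and 12 to 22 in CR mice, the lowest without AL 5 month replicate 4 and CR 5 month replicate 3, and none for diet or the interaction. The number of all genes called moved as well. In AL mice it was 3502 with all libraries and 2383 without AL 5 month replicate 2, where 9 members were called. Its part in these ranges was not tested. The choroid plexus score as a covariate was not tried without CR 5 month replicates 3 and 4. With this covariate, 8 of the 21 members outside the core were called with age in AL mice. Of these 1 was lower and 7 higher, against 10.5% of all genes called. In CR mice, where the score itself did not overlap between the ages, 0 members and no gene were called. In that fit Kl at 5 months between diets was at -0.10, 1500015O10Rik with age in CR mice at 0.18 and the interaction of Ttr at 0.59. Without CR 5 month replicates 3 and 4 the first and the last were at -0.24 and 0.19. The interaction of Kl ran from -0.048 without CR 5 month replicate 2 to 0.86 without replicate 4. The cause of these shifts was not tested.

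Same-numbered libraries do not appear to be paired, since their deviations from the group means correlated at -0.139 to 0.163 over 31 pairs and over 0.1 in 2. With the replicate block, 13 members were called with age in AL mice (3754 of 16978 genes called) and 18 in CR mice (617 genes called). In the other contrasts 0 members were called. Between any 2 libraries the correlation over genes was 0.889 to 0.945. At 15 months many members were below 0.1 FPKM, where the added value limits the fold change.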
